A study of Mus musculus with 58 samples.

Results

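Adding a knockdown of Bmpr1a to a knockdown of Kdr was examined in 12 of the 58 samples of the series, the RNA-seq libraries made from hematopoietic stem cells (HSCs) after transplantation; the series holds 34 RNA-seq libraries in all. They were chosen by their labels alone. HSCs of old male C57BL/6 mice carrying CD45.2 were cultured overnight with lentivirus and transplanted, with myeloid progenitor cells, into lethally irradiated young female CD45.1 recipients, from whose bone marrow donor HSCs carrying the viral reporter were sorted. Per the study's methods, the gate took live CD150+ and CD48- cells with Sca-1 and c-Kit that carried the donor's CD45.2. Cells stained for Gr-1, Mac-1, B220, Ter119 or CD3 were excluded, a step that would remove B cells, granulocytes, macrophages, T cells and erythroid cells. The double knockdown, Double_KdrBmpr, carried the hairpin Kdr-shRNA5 with a GFP reporter and a Bmpr1a hairpin with an mCherry reporter, which was Bmpr1a-shRNA1 in 2 libraries and Bmpr1a-shRNA2 in the other 2. Its control, Double_Scramble, carried scramble hairpins with both reporters in 2 libraries. The single knockdown, GFP_Kdr_shRNA, carried Kdr-shRNA5 with GFP in 4 libraries, and its control, GFP_Scramble, a scramble hairpin with GFP in 2 libraries.

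The added effect is the double knockdown effect (Double_KdrBmpr minus Double_Scramble) minus the single knockdown effect (GFP_Kdr_shRNA minus GFP_Scramble), so that each knockdown is read against the control with the same reporters. The shared effect is the mean of both knockdown effects, which have no library in common. Both knockdowns carried the same Kdr hairpin, so loss of Kdr and other effects of that hairpin cannot be told apart. All 12 libraries were old, transduced and transplanted cells, and none carried a Bmpr1a hairpin without the Kdr hairpin, so the effect of Bmpr1a knockdown alone was not measured. The labels do not say whether replicates came from separate recipients, so the p-values measure the spread between these libraries, which may be technical. Per the paper, HSCs were infected with both viruses, and double and single knockdown HSCs were sorted after transplantation. Libraries of different arms may therefore share recipients, and the fits treat them as unrelated. Each control has 2 libraries, and the number of libraries limits the precision of every difference given here.

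BMPR1A is a type I receptor of the bone morphogenetic protein (BMP) family. On binding ligand with a type II receptor it phosphorylates SMAD1 and SMAD5, which enter the nucleus with SMAD4 and switch on targets such as the Id genes, inhibitors of basic helix-loop-helix factors. KDR, also called VEGFR2, is the main signalling receptor for VEGF-A and is best known in endothelial cells. In the marrow BMP signals have been linked to the HSC niche and VEGF signals to vessel regeneration and HSC survival. The study asked whether lowering both receptors in old HSCs moved their transcriptome toward that of lifelong caloric restriction.

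Libraries held 35657999 to 44780217 assigned reads and 23453 to 25447 detected genes, and the first principal component of the 500 most variable genes held 22.9% of their variance. Levels are CPM, read counts scaled to library size after TMM normalization. Kit, which marks HSCs and progenitors, ranged from 1351 to 1664 CPM, and Procr, the gene of the HSC surface protein EPCR, from 96.9 to 164 CPM. Genes that mark neutrophils and monocytes were present in every library, with a summed level of 658 to 3446 CPM over 15 genes in the double knockdown, 1438 and 5360 CPM in Double_Scramble, 1243 to 2743 CPM in the single knockdown and 837 and 2733 CPM in GFP_Scramble. The 4 Y-linked genes of the male donors summed to 299 to 423 CPM and Xist, expressed by the female recipients, was at 2.48 to 11.1 CPM. In bulk libraries fewer cells of a type and less RNA per cell cannot be told apart.

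Of the sequences that bear on the readout of BMPR1A, part of an Id2 promoter window is shown because Id2 is a BMP target whose level is described in every arm. The stretch is the part of the RefSeq window around the start of one Id2 transcript (GRCm38.p6) that lies outside every annotated Id2 exon. A longer Id2 transcript annotated in GENCODE starts farther upstream, so the stretch also lies inside its first intron. It is at chr12:25096254-25096342 on the minus strand, written 5′ to 3′, with the GC-rich motif GGCGCC to which SMAD1 and SMAD5 can bind in capitals.
Id2: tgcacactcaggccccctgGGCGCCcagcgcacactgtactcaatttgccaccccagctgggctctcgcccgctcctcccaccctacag
The 300-base promoter window of Id2, from which this stretch of 89 bases was taken, held 1 GGCGCC, a motif that reads the same on both strands, and no CAGAC on either strand, the letters of a SMAD-binding element (GTCTG on the other strand). The RefSeq window of Id3, at chr4:136143572-136143871, lies inside the first exon of a longer transcript annotated in GENCODE and held no GGCGCC and 2 CAGAC. Among all 32851 promoters of this length 11.9% held GGCGCC and 49.6% held CAGAC, and among those of 12263 tested genes 19.6% and 48.1%. The Id1 promoter was not used here.

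Kdr, the target of the hairpin common to both knockdowns (chromosome 5, 75932827 to 75978458, minus strand of GRCm38), was low in all knockdown libraries. It was at 1.24, 0.556, 1.598 and 1.35 CPM in the double knockdown against 3.98 and 4.63 CPM in Double_Scramble. The single knockdown held 1.93, 2.21, 3.28 and 2.03 CPM against 6.04 and 6.07 CPM in GFP_Scramble. All 8 knockdown libraries were below all 4 scramble libraries, as they were for 1.42% of the 21250 genes tested, and the 4 double knockdown libraries were also below the 4 single knockdown libraries. The shared effect on Kdr fell by 1.61 on the log2 scale (SE 0.23, adjusted p = 0.0136 by edgeR's quasi-likelihood test with Benjamini-Hochberg adjustment). Taken alone, neither knockdown passed an adjusted p of 0.05 for Kdr (double, log2 fold change -1.86, SE 0.33, adjusted p = 0.0715; single, log2 fold change -1.35, SE 0.32, adjusted p = 0.331). The added effect on Kdr was -0.50 (95% interval -1.54 to 0.54), so a stronger or a weaker loss of Kdr in the double knockdown was not detectable. Leaving out any 1 of the 4 scramble libraries raised the p of the shared effect on Kdr above the threshold, with adjusted p between 0.0635 and 0.0984.

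Bmpr1a, the target of the second hairpin (chromosome 14, 34410734 to 34503341, minus strand), was low in 3 of the 4 libraries labelled as double knockdown. The libraries labelled Bmpr1a-shRNA1 held 4.44 and 0.657 CPM and those labelled Bmpr1a-shRNA2 held 2.22 and 0.595 CPM, against 5.21 and 4.43 CPM in Double_Scramble. In the libraries without a Bmpr1a hairpin it was at 1.67, 3.73, 7.96 and 7.68 CPM in the single knockdown and 8.29 and 4.37 CPM in GFP_Scramble. The first library labelled Bmpr1a-shRNA1 thus lay among the scramble libraries and goes against its label, and the lowest single knockdown library lay below 2 of the double knockdown libraries. The double knockdown effect on Bmpr1a was -1.29 (SE 0.71, adjusted p = 0.602) and the added effect -1.02 (95% interval -3.26 to 1.22), and neither passed the test. Without the first library labelled Bmpr1a-shRNA1 they were -2.05 (adjusted p = 0.32) and -1.79, and the count of genes called in the added effect remained 0.

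**Figure D1:**
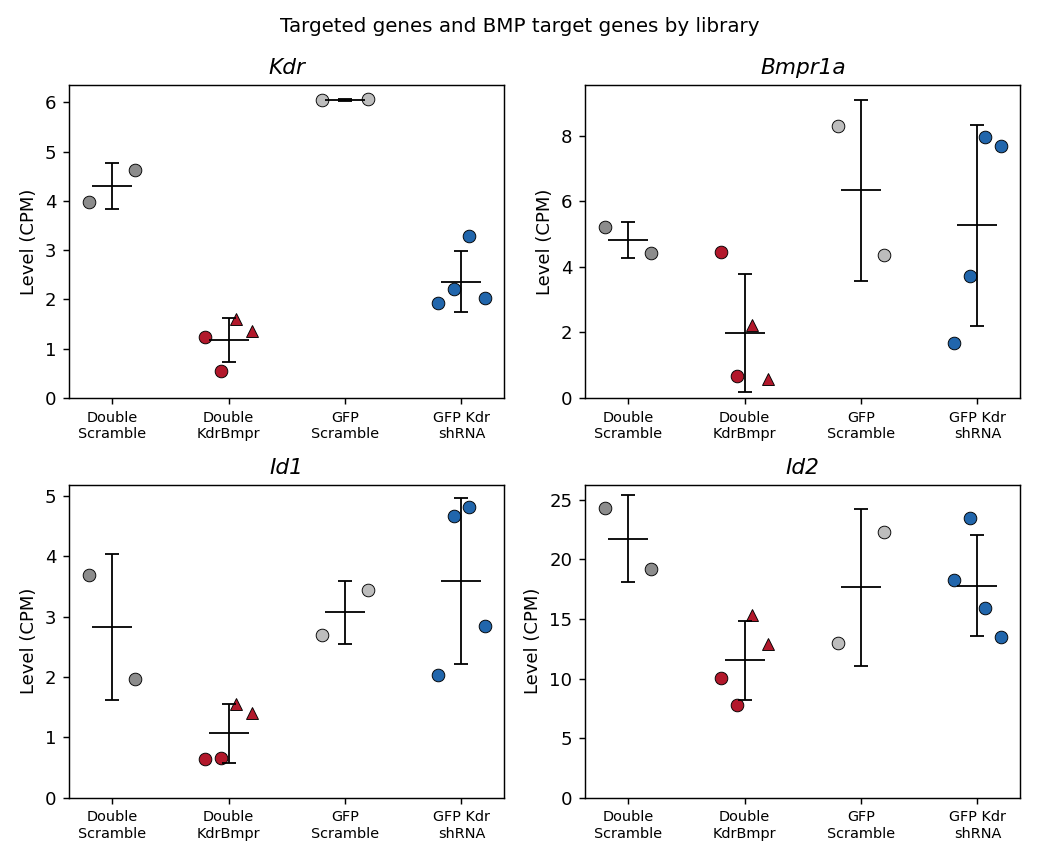
Levels in CPM (y axis) of the targeted genes Kdr and Bmpr1a and of the BMP target genes Id1 and Id2 in the 4 arms (x axis); each point is 1 library, triangles are Bmpr1a-shRNA2, and bars are the mean and SD. Kdr is lower in all 8 knockdown libraries than in the 4 scramble libraries, and Id1 is lower in the 4 double knockdown libraries than in the other 8.

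No gene passed the test of the added effect, which asks whether a gene responded differently to the double and to the single knockdown. Of 21250 genes tested by edgeR, 0 (0%) had an adjusted p below 0.05 with a fold change above 1.2, the rule used for every call here, and the smallest adjusted p, rounded, was 1. An unadjusted p below 0.05 was reached by 760 genes (3.58%), of which 336 were higher and 424 lower. DESeq2 called 3 genes, Prom1, Tifab and Ighm, all lower, with 868 genes at an unadjusted p below 0.05, and limma voom called 0 with 1237 genes. Over the 11797 genes whose mean level reached 5 CPM the median SE of the added effect was 0.162 on the log2 scale, against 0.114 for either knockdown, and the median size of the added effect was 0.111.

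The 3 genes DESeq2 called share a pattern in which the arms crossed. Prom1, which encodes the stem and progenitor surface protein prominin-1 (CD133), was at 0.169, 0.707, 1.05 and 0.812 CPM in the double knockdown and 5.19 and 7.75 CPM in Double_Scramble. In the single knockdown it was at 2.99, 7.801, 1.52 and 2.796 CPM and in GFP_Scramble at 0.847 and 1.601 CPM. The 4 double knockdown libraries lay below both of their controls without overlap, while the single knockdown overlapped its own controls and lay mostly above them. The added effect was -4.85 (SE 0.94, unadjusted p = 0.000204), made of -3.23 in the double and 1.62 in the single knockdown. The controls of Prom1 themselves differed, by 2.40 between Double_Scramble and GFP_Scramble (unadjusted p = 0.00715).

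Tifab, which encodes an inhibitor of the TRAF6 adaptor of innate immune signalling, was at 0.449, 1.31, 0.949 and 0.974 CPM in the double knockdown, 6.32 and 2.34 CPM in Double_Scramble, 2.54, 12.6, 1.47 and 2.39 CPM in the single knockdown and 0.053 and 0.406 CPM in GFP_Scramble. Its added effect was -6.55 (SE 1.32, unadjusted p = 0.000298). The second single knockdown library held the highest level of the 12, and GFP_Scramble was near 0. Ighm, the immunoglobulin mu heavy chain, was at 3.65, 2.85, 1.95 and 3.73 CPM in the double knockdown, 8.63 and 2.76 CPM in Double_Scramble, 12.1, 18.4, 7.87 and 3.38 CPM in the single knockdown and 0.953 and 1.58 CPM in GFP_Scramble. Its added effect was -3.94 (SE 0.85, unadjusted p = 0.000518), the single knockdown lay above both of its controls, and the double knockdown overlapped its own. Counts of Ighm can be split among immunoglobulin segments and are uncertain to that extent.

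MHC class II genes, which encode the proteins that present peptides to helper T cells and the chaperones that load them, led the genes that were higher in the added effect by unadjusted p. Cd74, the invariant chain, was at 255, 249.6, 196 and 145 CPM in the double knockdown and 229 and 246 CPM in Double_Scramble. The single knockdown held 235, 202, 204 and 181 CPM and GFP_Scramble 557 and 455 CPM. The 2 GFP_Scramble libraries stood above the other 10, which overlapped each other. The added effect of 1.13 (SE 0.26, unadjusted p = 0.000905) came with -1.30 in the single knockdown (adjusted p = 0.0774), -0.17 in the double knockdown and -1.09 between the controls.

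The class II chains repeated this. H2-Aa was at 117, 100.5, 81.7 and 73.2 CPM in the double knockdown, 107 and 93.3 CPM in Double_Scramble, 95.2, 91.5, 87.6 and 83.9 CPM in the single knockdown and 197 and 155 CPM in GFP_Scramble. Again only the GFP_Scramble libraries stood apart. Both Cd74 (-0.74, adjusted p = 0.0247) and H2-Aa (-0.54, adjusted p = 0.045) were called lower by edgeR in the shared effect. Their double knockdown effects were -0.17 and -0.11, so these calls do not show a fall in both knockdowns. The added effect was 0.87 for H2-Aa, 0.87 for H2-Ab1 and 1.17 for H2-Eb1, with unadjusted p of 0.00194, 0.00186 and 0.00178. Of the 10 class II genes tested, 7 were higher in the added effect at an unadjusted p below 0.05 (1.58% of all genes were) and 0 passed the adjusted test. Their median was 0.68 in the added effect, -0.72 in the single knockdown, 0.11 in the double knockdown and -0.53 between the controls, beside medians of -0.0068 to -0.0017 over all genes tested. Markers of B and plasma cells, which also express class II, summed to 47.6 to 60.3 CPM in the double knockdown, 35.2 and 44.7 CPM in Double_Scramble, 42.5 to 69.1 CPM in the single knockdown and 34.1 and 41.4 CPM in GFP_Scramble over 10 tested genes, and 9 tested markers of macrophages and dendritic cells to 120.3 to 159 CPM in the double knockdown, 88.7 and 105 CPM in Double_Scramble, 83.1 to 120.1 CPM in the single knockdown and 84.8 and 85.3 CPM in GFP_Scramble, and their part in the result was not tested. Compared directly, the double and the single knockdown libraries overlapped in Cd74 (difference 0.04, 95% interval -0.29 to 0.37).

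**Figure D2:**
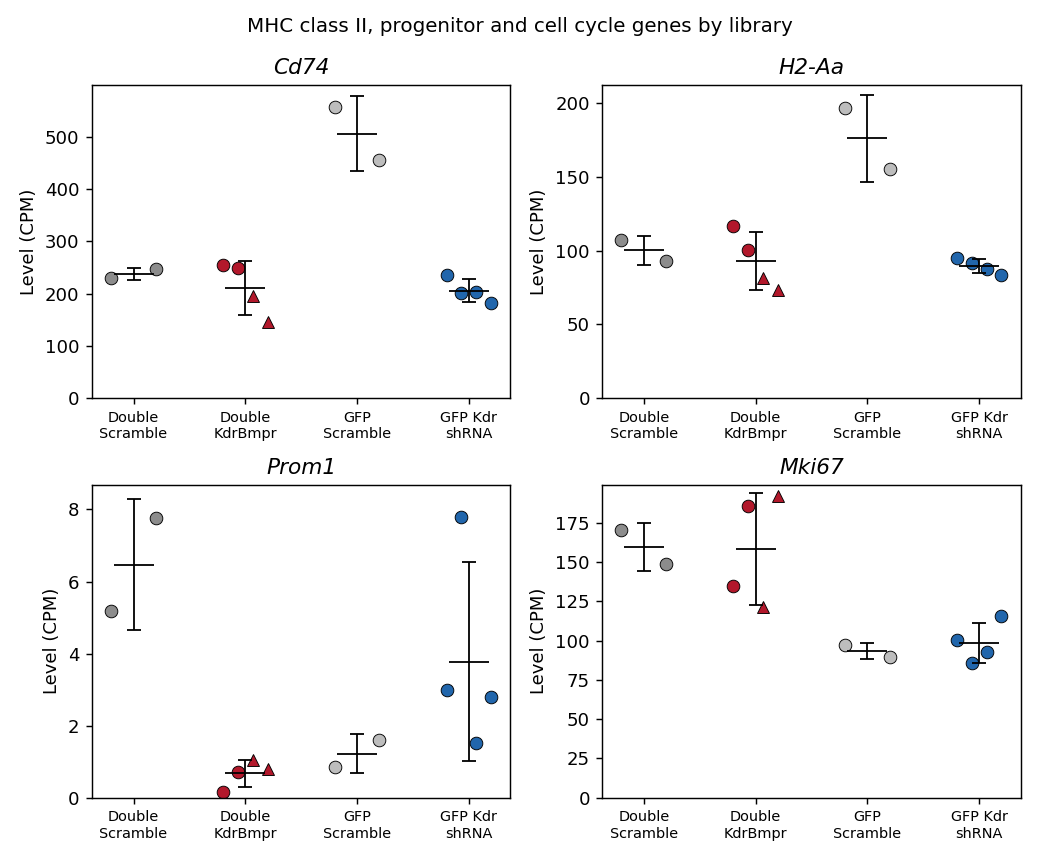
Levels in CPM (y axis) of Cd74, H2-Aa, Prom1 and Mki67 in the 4 arms (x axis), each point 1 library, triangles Bmpr1a-shRNA2, bars mean and SD. The 2 GFP_Scramble libraries stand above the other 10 for Cd74 and H2-Aa, the 4 double knockdown libraries lie below Double_Scramble for Prom1, and Mki67 is higher in both mCherry-carrying arms than in both arms with GFP alone.

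Other genes with a small p in the added effect were read the same way, and none passed the adjusted test. With no filter on low counts Emilin2 (adjusted p = 0.0339) and Cd74 (0.0289) were called beside Prom1, Tifab and Ighm. Emilin2, an extracellular matrix glycoprotein, was at 51.7, 44.3, 39.8 and 39.4 CPM in the double knockdown, 65.2 and 48.2 CPM in Double_Scramble, 73.3, 47.3, 60.5 and 78.5 CPM in the single knockdown and 39.9 and 35.7 CPM in GFP_Scramble. The single knockdown lay above its controls and the double knockdown overlapped its own, with an added effect of -1.15 (SE 0.27, unadjusted p = 0.00088). Cnn3, the actin-binding protein calponin 3, was at 3.26, 2.93, 4.04 and 4.6 CPM in the double knockdown, 12.2 and 13.9 CPM in Double_Scramble, 11.7, 9.27, 7.63 and 4.27 CPM in the single knockdown and 6.41 and 10.3 CPM in GFP_Scramble. Here the difference lay in the double knockdown (-1.81, adjusted p = 0.0715), while the single knockdown was at -0.02.

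Svil, which encodes the actin-binding supervillin, had a small p with almost no difference between the controls. It was at 66.5, 70.03, 79.9 and 73.7 CPM in the double knockdown and 92.3 and 90.5 CPM in Double_Scramble, and at 94.3, 95.1, 95.6 and 97.7 CPM in the single knockdown and 95.8 and 87.5 CPM in GFP_Scramble. The 4 double knockdown libraries lay below the other 8, as they did for 1.05% of all genes tested. GFP_Scramble overlapped the single knockdown and Double_Scramble, and Double_Scramble lay below the single knockdown. The added effect was -0.39 (SE 0.10, unadjusted p = 0.00255) and the controls differed by -0.004. Pgm1, a phosphoglucomutase gene, lay higher in all 4 double knockdown libraries (116, 124, 118 and 127 CPM) than in Double_Scramble (102 and 99.6 CPM). It had an added effect of 0.34 (unadjusted p = 0.00216).

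At an unadjusted p below 0.05 with a fold change above 1.2 in each knockdown, 13 genes differed in opposite directions and 316 in the same direction, of 1542 genes (7.26%) in the double and 1299 (6.11%) in the single knockdown. Prom1 and Tifab were among the 13. Clec12a, another of them, an inhibitory C-type lectin of myeloid cells, was at 6.18, 7.804, 4.99 and 13.8 CPM in the double knockdown, 20.95 and 22.1 CPM in Double_Scramble, 10.1, 22.7, 5.597 and 8.95 CPM in the single knockdown and 2.07 and 7.17 CPM in GFP_Scramble. The double knockdown lay below its controls, which held more Clec12a than GFP_Scramble did. No gene was called with opposite signs after adjustment by edgeR or by DESeq2.

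The BMP pathway was examined by role, and 0 of its genes were called in any of the 4 effects. Of 9 receptors and co-receptors tested, 0 had an unadjusted p below 0.05 in the added effect. Bmpr2, the type II partner of BMPR1A, was at 15.9, 10.1, 12.7 and 12.9 CPM in the double knockdown and 11.4 and 13.4 CPM in Double_Scramble, with an added effect of 0.37 (95% interval -0.43 to 1.17). Acvr1, another type I BMP receptor, had an added effect of 0.53 (95% interval -0.24 to 1.30). The co-receptor Tgfbr3 did not pass the adjusted test in the double knockdown (-0.50, unadjusted p = 0.0151) or in the single knockdown (-0.38, unadjusted p = 0.0543), and its added effect was -0.12. Of 6 ligands tested, Bmp8b was the one with an unadjusted p below 0.05 in the added effect (-0.34). Bmp4 was at 0.393, 0.354, 1.498 and 0.866 CPM in the double knockdown, 2.42 and 1.94 CPM in Double_Scramble, 1.52, 3.88, 1.56 and 2.82 CPM in the single knockdown and 4.05 and 3.58 CPM in GFP_Scramble, and its added effect was -0.84 (95% interval -2.44 to 0.76). The 4 double knockdown libraries had less Bmp4 than each of the other 8, a pattern seen for 1.05% of all genes tested.

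The signal transducers Smad1 and Smad5 did not pass the test in any effect. Smad1 was at 121, 107, 123 and 128 CPM in the double knockdown and 111 and 122 CPM in Double_Scramble, and its added effect was -0.11 (95% interval -0.37 to 0.14). For Smad5 the added effect was 0.06 (95% interval -0.24 to 0.36). Of 6 antagonists and inhibitors tested, Smurf2, a ubiquitin ligase for SMADs, was the one with an unadjusted p below 0.05 (log2 value 0.47, SE 0.20, unadjusted p = 0.0315).

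Among BMP target genes Id1, Id2 and Id3 had their lowest mean in the double knockdown. Id1 was at 0.646, 0.657, 1.55 and 1.41 CPM in the double knockdown and 3.69 and 1.97 CPM in Double_Scramble. In the single knockdown it was at 2.03, 4.67, 4.82 and 2.85 CPM and in GFP_Scramble at 2.701 and 3.44 CPM. All 4 double knockdown libraries were below the other 8, as they were for 1.05% of all genes tested. The 2 libraries of Bmpr1a-shRNA1 were the lowest. Of these the lower, at 0.646 CPM, was the one whose Bmpr1a level goes against its label. The added effect was -1.63 (SE 0.63, unadjusted p = 0.023, adjusted p = 1), made of -1.40 in the double and 0.23 in the single knockdown.

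Id2, whose promoter stretch is given above, was at 10.1, 7.78, 15.4 and 12.9 CPM in the double knockdown, 24.3 and 19.2 CPM in Double_Scramble, 18.3, 23.5, 15.96 and 13.5 CPM in the single knockdown and 12.98 and 22.3 CPM in GFP_Scramble. The double knockdown lay below its own controls but overlapped the other arms. Its added effect was -0.93 (SE 0.41, unadjusted p = 0.042). Id3 was at 0.337, 0.657, 0.849 and 0.162 CPM in the double knockdown and 2.42 and 0.738 CPM in Double_Scramble, with an added effect of -2.04 (SE 0.90, unadjusted p = 0.0418) on levels of a few CPM or less. Without replicate 1 of Double_Scramble the effects on Id3 were -0.94 (added) and -0.55 (double), and that on Id1 in the double knockdown was -0.89. Without replicate 1 of GFP_Scramble the added effect on Id2 was -0.59. Other targets had added effects whose intervals spanned 0. Smad6, the inhibitory SMAD that BMP signals induce, was at 8.68, 9.12, 9.04 and 8.198 CPM in the double knockdown and 8.19 and 7.43 CPM in Double_Scramble, and its added effect was 0.14 (95% interval -0.39 to 0.67); for Smad7 it was 0.27 (95% interval -0.36 to 0.90) and for Bambi, a decoy receptor, 0.19 (95% interval -0.23 to 0.60). Of the 8 BMP targets tested, 3 were lower and 0 higher at an unadjusted p below 0.05 in the added effect (2% of all genes were lower), and the list's median was -0.39 in the added effect, -0.02 in the double and 0.02 in the single knockdown. The sign of the added median changed with a filter on low levels, being 0.17 among genes averaging 5 CPM or more, which drops Id1 and Id3 among others.

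The VEGF pathway had the targeted Kdr and Nrp2 in the shared effect and no member in the added effect. Of 9 receptors, co-receptors and ligands tested, Kdr and Nrp2 were called lower in the shared effect, in which 0.471% of all genes were called lower. Kdr is the target of the hairpin in both knockdowns, so its call is no evidence of a response of the pathway, which leaves Nrp2. Nrp2, the VEGF co-receptor neuropilin 2, was at 0.506, 0.253, 0.649 and 0.541 CPM in the double knockdown and 8.503 and 1.35 CPM in Double_Scramble. The single knockdown held 0.203, 0.457, 0.268 and 0.737 CPM and GFP_Scramble 2.73 and 2.103 CPM. All 8 knockdown libraries were below all 4 controls, and the shared effect fell by 2.93 on the log2 scale (SE 0.43, adjusted p = 0.0136). The Nrp2 call was lost without replicate 1 of Double_Scramble (adjusted p = 0.107) or either replicate of GFP_Scramble (0.078 and 0.0907). Vegfa, the ligand of KDR, had an added effect of -0.47 (95% interval -1.38 to 0.43). Of 18 genes of signalling below the receptor, 0 were called in any effect.

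By edgeR the double knockdown alone called 15 genes (0.0706% of those tested), 4 higher (0.0188%) and 11 lower (0.0518%), and the single knockdown 0 (0%), with 2089 (9.83%) and 1966 (9.25%) genes at an unadjusted p below 0.05. DESeq2 called 343 and 240, and limma voom 73 and 34. No gene was called in both by edgeR, 16 were by limma voom, and 65 were by DESeq2, which is 19% of its double and 27.1% of its single knockdown calls. All 65 moved in the same direction in both, 30 higher and 35 lower, and all 65 were also called by edgeR in the shared effect. A call in the double and not in the single knockdown does not show a difference between them, since the added effect called none.

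The 15 genes called in the double knockdown were Cd53, Emb, Mapre2 and Sept1, which rose, and Acly, Asap1, Cald1, Fads2, Fzd6, Gpd1l, Il27ra, Ldb2, Lpp, Tmem123 and Tmem164, which fell. Acly, ATP-citrate lyase of lipid synthesis, was at 256, 245, 264 and 247 CPM against 347 and 378 CPM in Double_Scramble, and at 294, 288, 277 and 253 CPM in the single knockdown against 310.5 and 307 CPM in GFP_Scramble. The double knockdown lay well below its controls and the single knockdown just below its own. The fall was 0.52 in the double (adjusted p = 0.0172) and the single knockdown effect was -0.15, an added effect of -0.37 (unadjusted p = 0.00199). Cald1, the actin-binding caldesmon, and Ldb2, a LIM domain-binding cofactor, were at 0 counts in all 4 double knockdown libraries. Cald1 was at 0.895 and 0.541 CPM in Double_Scramble and 0.304, 0.193, 0.089 and 0.381 CPM in the single knockdown, and Ldb2 at 0.421 and 0.738 and 0.203, 0.337, 0.223 and 0.254 CPM. Against a limit of 3 counts per library, which a count of 0 allows (0.079 CPM on average, counting error only), Cald1 was at least 9.09-fold lower and Ldb2 at least 7.34-fold lower than in Double_Scramble. Their single knockdown effects were -1.18 and -0.95. Their added effects were -6.65 (unadjusted p = 0.000746) and -6.58 (unadjusted p = 0.000403), sizes that counts of 0 leave uncertain. Neither passed the adjusted test of the added effect.

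In the shared effect 164 genes were called (0.772%), 64 higher (0.301%) and 100 lower (0.471%). Their median in the double and the single knockdown was 0.46 and 0.39 for the higher genes and -0.68 and -0.57 for the lower ones. The choice of genes by the mean of both effects favours a common sign, which all 164 had. Of the 164, 151 had an unadjusted p below 0.05 in each knockdown. A call in the shared effect thus does not by itself show a change in both. The 8 knockdown libraries lay above all 4 scramble libraries for 55 of the 64 higher genes (1.56% of all genes did) and below them for 81 of the 100 lower genes (1.42% did). The genes were chosen on these same libraries, which favours such a separation, so these counts are no further support. Of the 164, 17 had an unadjusted p below 0.05 in the added effect (3.58% of all genes did). The count rested on the controls: it was 9 and 7 without replicate 1 or 2 of Double_Scramble and 6 and 5 without replicate 1 or 2 of GFP_Scramble. It was 63, 86 and 89 without replicate 3, 1 or 4 of the single knockdown, and 287 without replicate 1 of Bmpr1a-shRNA2. Across the 11797 genes whose mean level reached 5 CPM the double and the single knockdown effects had a Pearson correlation of 0.284 and a Spearman correlation of 0.446 over genes, which are not independent replicates.

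**Figure D3:**
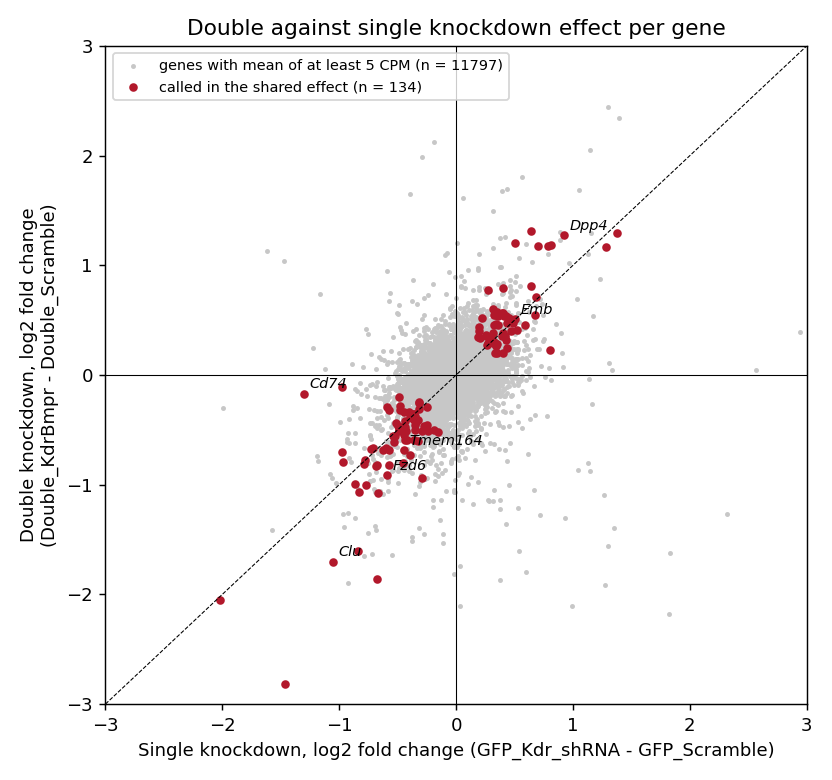
Double knockdown effect (y axis, log2 fold change) against single knockdown effect (x axis, log2 fold change) for the 11797 genes whose mean level reached 5 CPM; red points are the 134 of these genes called in the shared effect, the dashed line marks equal effects, and 8 genes lie outside the axes. The called genes are either below 0 in both effects or above 0 in both, with Cd74 farther from the line than Emb or Tmem164.

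Since no gene was called in both knockdowns, the 10 genes with the smallest p in each direction were taken from those called in the shared effect with a mean level of 5 CPM or more. Those that rose were Emb, Tes, Cd53, Akr1c13, Lrrc1, Sept1, Dap, Gm2a, Gm17509 and Dpp4. Emb, the cell adhesion glycoprotein embigin, was at 196, 186, 190.0 and 216 CPM in the double knockdown and 145 and 131 CPM in Double_Scramble. In the single knockdown it was at 197, 189, 173 and 185 CPM and in GFP_Scramble at 132 and 130.1 CPM. Every knockdown library stood above every scramble library. The shared effect was 0.51 (SE 0.05, adjusted p = 0.0022) and the added effect 0.01 (95% interval -0.22 to 0.24). Cd53, a leukocyte tetraspanin, rose from 61.5 and 53.5 CPM to 161, 109, 104 and 146 CPM in the double knockdown and was at 106, 122, 99.6 and 141 CPM in the single knockdown against 71.97 and 63.9 CPM (shared effect 0.98, adjusted p = 0.00907). Dpp4, the surface peptidase CD26 that trims CXCL12, was at 36.2, 53.9, 53.6 and 59.2 CPM in the double knockdown against 24.96 and 17.1 CPM, and at 36.6, 45.6, 26.6 and 48.8 CPM in the single knockdown against 21.1 and 20.5 CPM. Its shared effect was 1.10 (SE 0.18, adjusted p = 0.022), and no knockdown library reached down to a control.

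Those that fell were Tmem164, Lpp, Fzd6, Gpd1l, Il27ra, Dynlt3, Fam107b, Tmem123, Shmt2 and App. Tmem164, an acyltransferase of ether lipids, was at 103, 102, 104 and 105 CPM in the double knockdown against 169.8 and 163 CPM, and at 134, 127, 120.3 and 114 CPM in the single knockdown against 161 and 176 CPM. The double knockdown libraries lay below the single knockdown libraries, and both below all 4 controls. The shared effect fell by 0.57 (SE 0.05, adjusted p = 0.000806), and the added effect was -0.24 (unadjusted p = 0.0298). Fzd6, a Wnt receptor of the Frizzled family, was at 26.5, 22.5, 23.9 and 22.02 CPM in the double knockdown against 43.02 and 46.4 CPM and at 31.1, 27.1, 31.3 and 34.6 CPM in the single knockdown against 45.5 and 47.8 CPM (shared effect -0.75, adjusted p = 0.00142). Shmt2, the mitochondrial serine hydroxymethyltransferase of one-carbon metabolism, was at 111, 103, 109 and 78.4 CPM in the double knockdown against 162 and 157 CPM and at 105, 109, 95.7 and 95.1 CPM in the single knockdown against 156 and 151 CPM (shared effect -0.63, adjusted p = 0.00704). For both genes each knockdown library lay below each control. Of these 20 genes, Emb, Tmem164, Lpp, Fzd6 and Gpd1l were below an adjusted p of 0.05 in all 22 alternative settings run for them, among them each library left out in turn, and the other 15 in 17 to 19.

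**Figure D4:**
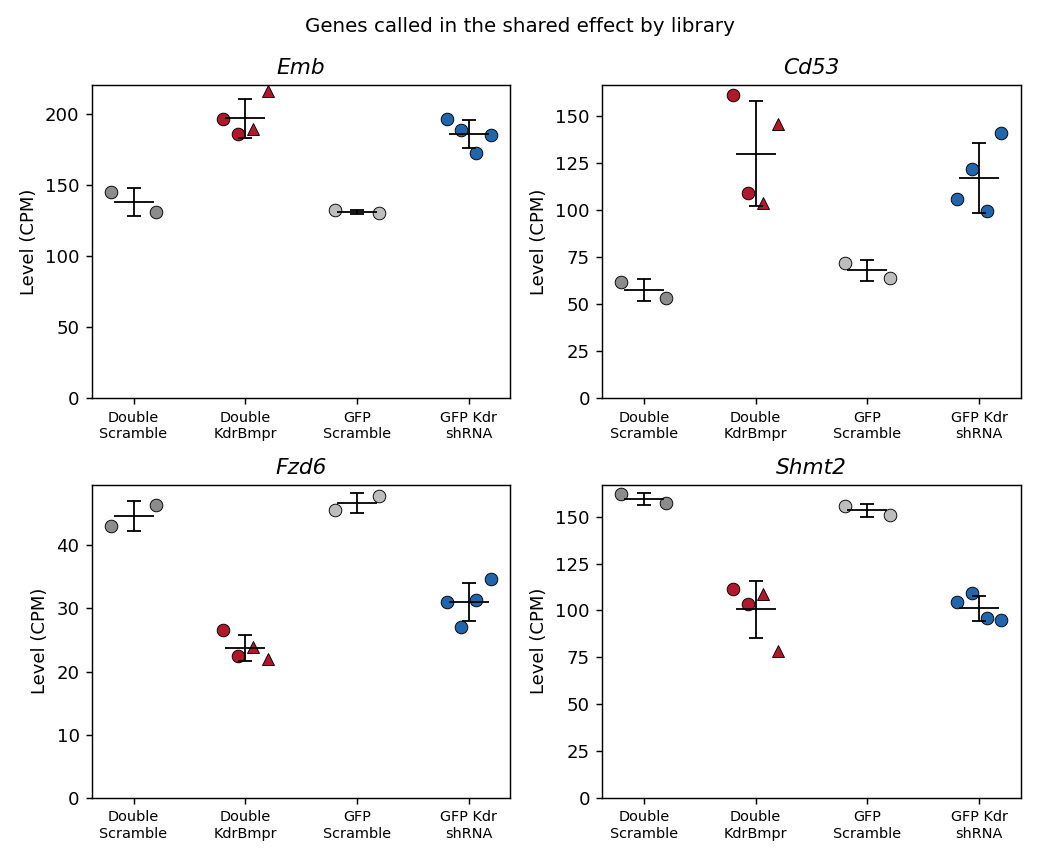
Levels in CPM (y axis) of Emb, Cd53, Fzd6 and Shmt2 in the 4 arms (x axis), each point 1 library, triangles Bmpr1a-shRNA2, bars mean and SD. Emb and Cd53 are higher and Fzd6 and Shmt2 lower in every knockdown library than in every scramble library.

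Genes that lifelong restriction moves were set beside these effects. The lists came from old restricted (OCR, 4 libraries) against old ad libitum (OAL, 4 libraries) HSCs, which share no library with the transplanted arms, and held 689 genes higher (2.54% of 27150 tested) and 822 lower (3.03%) in OCR. The OCR-lower list holds both targets: Kdr was at 43.6 CPM in OAL and 19.7 CPM in OCR, and Bmpr1a at 39.1 and 23.1 CPM, levels scaled apart from those of the transplanted cells. Of the 819 OCR-lower genes tested here, 20 were higher and 22 lower at an unadjusted p below 0.05 in the added effect. Over all genes 1.58% were higher and 2% lower in the added effect. The counts were 42 and 137 in the double (4.64% and 5.19% of all genes) and 30 and 85 in the single knockdown (4.92% and 4.33%). The median of the OCR-lower list was -0.04 in the added effect, -0.10 in the double and -0.09 in the single knockdown. With 1 library left out the added median ran from -0.1009 to 0.0166, turning sign without replicate 1 of GFP_Scramble, and it was 0.0163 with Bmpr1a-shRNA2 alone. Of the 683 OCR-higher genes, 5 were higher and 40 lower in the added effect, 38 and 36 in the double and 123 and 28 in the single knockdown (median -0.10, 0.01 and 0.12). The double knockdown median ran from -0.0447 to 0.0743 with 1 library left out, and the sign was negative without replicate 2 of Bmpr1a-shRNA2 or of Double_Scramble. None of either list was called in the added or the single knockdown effect by edgeR.

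Between the 2 control arms the medians of both OCR lists were farther from 0 than in either knockdown, a difference that was not tested. Of the OCR-higher genes, 258 were higher and 2 lower in Double_Scramble than in GFP_Scramble at an unadjusted p below 0.05 (3.12% and 2.09% of all genes), with a median of 0.25, and of the OCR-lower genes 1 was higher and 78 were lower (median -0.19). Over all genes tested in OCR against OAL, 3.03% were called lower in OCR and 2.54% higher. In the shared effect 25 of the 100 lower genes were also called lower in OCR and 4 higher. Of the 64 higher genes, 6 were also called higher and 3 lower. Kdr, Nrp2 and Clu were among the 25. Clu, the secreted chaperone clusterin, was at 5.56, 1.67, 5.84 and 4.14 CPM in the double knockdown against 18.3 and 9.695 CPM, and at 7.51, 14.6, 12.8 and 12.6 CPM in the single knockdown against 25.0 and 24.4 CPM. Its shared effect fell by 1.38 (SE 0.28, adjusted p = 0.0423), each knockdown lay below its own controls, and 3 single knockdown libraries lay above the lower Double_Scramble library. The Clu call was kept in 13 of 22 alternative settings and lost without any 1 of the 4 scramble libraries.

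The aging signature is a list named by the study of genes higher or lower in old HSCs. The paper describes it as a consensus of at least 4 independent studies. Kdr and Bmpr1a belong to it and were picked for knockdown from it, so these 2 members are not independent evidence of a direction. The signature-up score is the median log2 deviation of the members from their averages over the 12 libraries. Its mean was -0.286 in the double knockdown with both targets and -0.276 without them, and 0.0706 and 0.0685 in Double_Scramble. Of 176 signature-up genes tested, 41 were lower and 7 higher at an unadjusted p below 0.05 in the double knockdown (5.19% and 4.64% of all genes), and 19 and 2 in the single knockdown (4.33% and 4.92%). Their median was -0.30 in the double, -0.15 in the single knockdown and -0.15 in the added effect, in which 12 were lower and 6 higher (2% and 1.58%). The added median was -0.0326 without replicate 2 of Bmpr1a-shRNA1, -0.2255 without replicate 1 of Bmpr1a-shRNA2, -0.0819 without replicate 2 of Double_Scramble and -0.0757 without replicate 1 of GFP_Scramble. With the libraries of Bmpr1a-shRNA1 alone it was -0.2661 and with those of Bmpr1a-shRNA2 alone -0.0236, and the double knockdown median with Bmpr1a-shRNA2 alone was -0.136. The single knockdown median was -0.2337 and -0.0856 without replicate 1 or 2 of GFP_Scramble. The 5 called in the shared effect, among them the targeted Kdr, were all lower (0.471% of all genes were). Runx1t1, a transcriptional corepressor of the list, was at 1.71, 1.26, 5.74 and 3.54 CPM in the double knockdown, 11.6 and 14.9 CPM in Double_Scramble, 6.57, 9.27, 18.2 and 9.61 CPM in the single knockdown and 9.401 and 11.9 CPM in GFP_Scramble. All 4 double knockdown libraries lay below the other 8, as they did for 1.05% of all genes tested. The added effect on Runx1t1 was -2.14 (SE 0.72, unadjusted p = 0.0112). Kcnip3, a calcium-binding potassium channel regulator, had an added effect of -1.22 (unadjusted p = 0.00466). Of 39 signature-down genes, 11 were higher and 1 lower in the double, 9 and 0 in the single knockdown, and 1 and 1 in the added effect (median 0.20, 0.13 and 0.13).

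**Figure D5:**
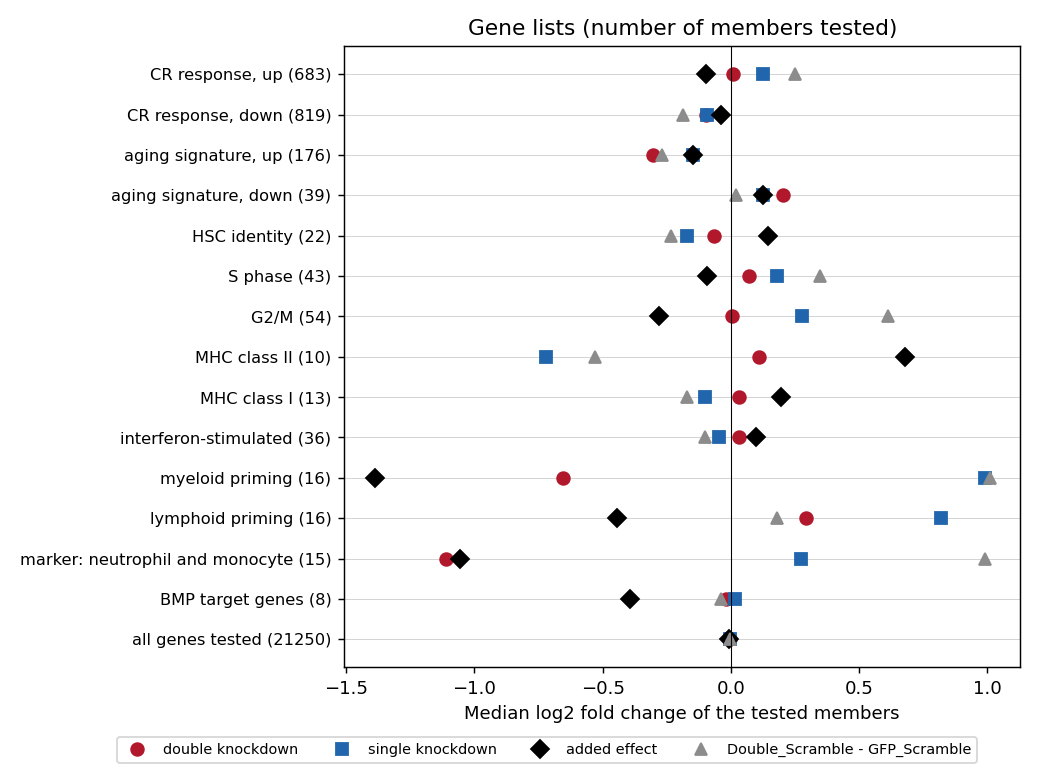
Median log2 fold change (x axis) of the tested members of each gene list (y axis, number of members in brackets) in the double knockdown, the single knockdown, the added effect and Double_Scramble against GFP_Scramble. "CR response, up" and "down" are the OCR-higher and OCR-lower lists. For G2/M, S phase and OCR-higher genes the difference between the scramble arms (0.61, 0.35 and 0.25) exceeds either knockdown effect, and all genes tested lie near 0.

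HSC identity genes and cell cycle genes were read by unadjusted counts, and none passed the adjusted test in either knockdown. Of 22 identity genes, 8 were lower and 0 higher in the single knockdown, 1 and 0 in the double, and in the added effect 2 were higher and 0 lower. Over all genes 4.33% were lower in the single and 5.19% in the double knockdown, and 1.58% higher in the added effect. Hlf, a transcription factor that marks HSCs, was at 283, 444, 314 and 286 CPM in the double knockdown, 292 and 273 CPM in Double_Scramble, 264, 237, 251 and 307 CPM in the single knockdown and 335 and 344 CPM in GFP_Scramble. The single knockdown lay below its controls and the second Bmpr1a-shRNA1 library was the highest of all, with an added effect of 0.59 (SE 0.22, unadjusted p = 0.0204). Fgd5, a guanine nucleotide exchange factor used to mark HSCs, was the identity gene called in the shared effect, in which it fell by 0.44 (SE 0.09, adjusted p = 0.0468), a call kept in 10 of 22 alternative settings and lost without any 1 of the 4 scramble libraries. It was at 34.7, 37.2, 44.4 and 36.3 CPM in the double knockdown against 45.4 and 49.8 CPM, and at 42.8, 39.9, 52.96 and 38.7 CPM in the single knockdown against 62.4 and 67.2 CPM. Each knockdown lay below its own controls, while the third single knockdown library lay above both Double_Scramble libraries.

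Of 54 G2/M genes, 23 were higher and 1 lower in the single knockdown, 3 and 2 in the double, and 0 and 7 in the added effect (medians 0.28, 0.00 and -0.28). Over all genes 4.92% were higher in the single and 4.64% in the double knockdown, and 2% lower in the added effect, so the double knockdown count was near the share over all genes. The added median was -0.15 without replicate 1 of Double_Scramble. Between the controls 45 of the 54 were higher in Double_Scramble (3.12% of all genes) and 0 lower (median 0.61). Mki67, the proliferation antigen Ki-67, was at 135, 185, 121 and 192 CPM in the double knockdown and 170.1 and 149 CPM in Double_Scramble. The single knockdown held 100.1, 85.5, 92.9 and 116 CPM and GFP_Scramble 97.1 and 89.7 CPM. Both mCherry-carrying arms lay above both arms with GFP alone, and each knockdown overlapped its own control, with an added effect of -0.09 (95% interval -0.61 to 0.44). The difference between the controls was 0.77 (SE 0.20, unadjusted p = 0.00209, adjusted p = 0.631). The second virus, its reporter and the sort for both reporters differ together between the control arms and cannot be told apart.

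Myeloid priming genes had medians of opposite sign in the knockdowns, and none was called. Mpo, the granule enzyme myeloperoxidase, was at 114, 68.3, 7.79 and 369 CPM in the double knockdown, 346 and 614 CPM in Double_Scramble, 151, 794, 97.4 and 344 CPM in the single knockdown and 2.09 and 29.1 CPM in GFP_Scramble. Libraries of the same arm lay far apart, and the 2 GFP_Scramble libraries were among the 3 lowest. The added effect was -6.24 (SE 1.80, unadjusted p = 0.00445), and for Elane, neutrophil elastase, -5.90 (SE 1.81). Of 16 myeloid priming genes 8 were lower and 0 higher in the added effect at an unadjusted p below 0.05 (2% of all genes were lower), 2 lower and 2 higher in the double and 0 lower and 5 higher in the single knockdown. Their median was -1.39, -0.65 and 0.99, and 1.01 between the controls. The 15 neutrophil and monocyte markers, whose summed levels are given above, had medians of the same signs (-1.06 in the added effect, -1.11 in the double and 0.27 in the single knockdown), all 15 had reads in every library, and their part in the result was not tested. S100a8, a calcium-binding protein of neutrophils, was at 55.8, 219.7, 308 and 602 CPM in the double knockdown and 1036 and 266 CPM in Double_Scramble, which overlapped. For the remaining lists, the shares over all genes were 1.58% higher and 2% lower in the added effect, 4.92% higher in the single knockdown and 3.12% higher between the controls. Of 16 lymphoid priming genes, 2 were lower in the added effect and 0 higher (median -0.45), and these were Ighm and Ly6d. Of 18 erythroid genes, 6 were lower and 0 higher in the added effect (median -0.52), beside a median of 0.90 between the controls. Of 16 tested genes of the TGF-beta and activin pathway and of 16 quiescence genes, 0 had an unadjusted p below 0.05 in the added effect in either direction, and of 36 interferon-stimulated genes 2 were higher and 0 lower. Of 13 MHC class I genes 3 were higher and 0 lower, with a median of 0.19 in the added effect and -0.17 between the controls. For S phase, 1 of 43 genes was higher and 1 lower in the added effect, against 11 higher and 0 lower in the single knockdown and 26 higher and 0 lower between the controls.

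The double and the single knockdown libraries were also compared directly, without subtracting controls, a comparison chosen after seeing the data. It called 1 gene of 21250 (0.00471%), with 2306 at an unadjusted p below 0.05. Fam120a, an RNA-binding scaffold protein, was at 38.6, 41.5, 51.2 and 54.5 CPM in the double and 89.01, 115, 105 and 97.6 CPM in the single knockdown. Its difference was -1.13 (SE 0.13, adjusted p = 0.0203). The controls differed alike, with 51.7 and 42.5 CPM in Double_Scramble and 104 and 80.9 CPM in GFP_Scramble, so the added effect was -0.16 (95% interval -0.63 to 0.32). Direct and control differences have no library in common. Over the 11797 genes their Pearson correlation was 0.23 and their Spearman correlation 0.325, and at an unadjusted p below 0.05 with a fold change above 1.2 they had 200 genes in the same direction, which is 13.2% of 1512 direct (7.12% of all genes) and 22.5% of 890 control differences (4.19%), and 16 in opposite directions. Between the controls edgeR called 0 genes (1108 at an unadjusted p below 0.05), DESeq2 81 and limma voom 0, with 2373 genes at an unadjusted p below 0.05.

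The hairpins to Bmpr1a differed from each other. Between the 2 Bmpr1a-shRNA1 and the 2 Bmpr1a-shRNA2 libraries, all of which also carried Kdr-shRNA5, 33 genes were called (0.155%), 2 higher (0.00941%) and 31 lower (0.146%) with Bmpr1a-shRNA1. Hprt, a purine salvage enzyme, was at 184 and 175 CPM with Bmpr1a-shRNA1 and 255 and 272 CPM with Bmpr1a-shRNA2, and at 239 and 247 CPM in Double_Scramble. The libraries of Bmpr1a-shRNA1 were the lowest of the 12, and the difference was -0.56 (SE 0.07, adjusted p = 0.0127). B4galt4, a galactosyltransferase, was at 23.5 and 23.7 CPM with Bmpr1a-shRNA1 and 48.9 and 47.7 CPM with Bmpr1a-shRNA2, and at 49.1 and 48.9 CPM in Double_Scramble (difference -1.04, SE 0.12). Evc, a ciliary regulator of hedgehog signalling, was at 0.112 and 0 CPM with Bmpr1a-shRNA1 and 10.1 and 3.33 CPM with Bmpr1a-shRNA2. Against Double_Scramble, Bmpr1a-shRNA1 called 97 genes (0.456%) and Bmpr1a-shRNA2 8 (0.0376%). The difference in Bmpr1a itself did not pass the test and was 0.84 (SE 0.88, adjusted p = 0.875). Without replicate 2 of Bmpr1a-shRNA1 or replicate 1 of Bmpr1a-shRNA2 the count of 33 was 0, and without the library whose Bmpr1a level goes against its label it was 94.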

How the data were processed

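RNA of sorted donor HSCs was sequenced in 12 libraries. Per the study's methods and the labels, the authors trimmed reads with Trim Galore and cutadapt, aligned them with STAR to mm10 and counted them per gene with featureCounts (GENCODE M22). The deposited values are raw counts for 55376 gene symbols. The strand setting and the treatment of multimapping reads are not given in the sources used here, so paralogs, overlapping and antisense genes are uncertain. The paper and the labels name different library kits.

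From these counts, genes with low counts were filtered (filterByExpr by arm, 21250 of 55376 tested), scaled by TMM and fitted in 1 model of 4 arms with edgeR's quasi-likelihood test (edgeR 4.0.16, R 4.3.3, 8 residual degrees of freedom). Calls required p, adjusted by Benjamini-Hochberg, to lie below 0.05 with a change of more than 1.2-fold. The added effect, both knockdowns, their mean and the control difference are contrasts of this fit; the hairpins were compared in a fit of 5 groups. Levels are CPM on TMM-scaled library sizes. The restriction lists came from a separate edgeR fit of OCR against OAL (27150 genes tested). Columns that map to no sample numbered 0. Gene positions are from GENCODE M21 on GRCm38, in which 54510 symbols matched, not the authors' M22.

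Libraries held 35657999 to 44780217 counts. Intervals are at 95%, and limits for a count of 0 are 3 counts per library and cover counting error only. Replicates differed by more than sampling noise (chi-square over degrees of freedom 16.89 to 57.43). Same-numbered libraries did not deviate together in all pairs, so the fits have no block. Which libraries share a recipient is not stated, and a pairing across other numbers was not tested. Fits were tested on simulated data.

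The members, gene lists and tests were chosen with earlier results of these data known. Named genes were the targets, tested BMP and VEGF pathway genes, and the 10 genes in each direction with the smallest p and a mean of at least 5 CPM. For the shared effect the rule asked for genes called in both knockdowns, which gave none, so those with the smallest p among genes called in the mean of both were taken. Prom1, Tifab, Clec12a and the genes named in the direct and hairpin comparisons, the gene lists and for a motif were chosen after their values were seen. Alternatives were DESeq2 1.42.0, limma voom (limma 3.58.1), DESeq2 size factors, other filters, a replicate block, hairpins apart or alone, each knockdown fitted with its own control, and each library left out. Promoter sequences are from RefSeq (GRCm38.p6).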

Additional observations from a re-analysis of the deposited data

Results flagged for a closer look

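Among 134 values tested in the arms of 4 libraries, 4 had 1 library whose gap to its nearest neighbour, as a share of the arm's range, was above Dixon's 95% limit for 4 samples, and chance gives about 1 in 20. Tifab was at 12.568 CPM in replicate 2 of the single knockdown, above the other 3 libraries (ratio 0.904). In the same arm the S phase score, the median over the list of each gene's log2 deviation from its average over the 12 libraries, was 0.1299 in replicate 1 and the highest (ratio 0.88). The neutrophil and monocyte marker score was -0.623 in replicate 3 of the single knockdown and the lowest (ratio 0.903). The score of aging signature genes that are higher in old HSCs was -0.82 in replicate 2 of Bmpr1a-shRNA1 and the lowest of the double knockdown (ratio 0.835).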

How the results depend on the processing

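The added effect called 0 genes under 9 of 11 other settings and without each library, 3 by DESeq2 and 5 with no filter on low counts, and the direct comparison added after seeing the data called 1. The double knockdown (15 genes) called 343 by DESeq2, 216 with no filter, 28 with at least 10 counts in every library, 23 with a mean of at least 5 CPM, 73 by limma voom, 45 with hairpins as separate groups, 115 and 7 with Bmpr1a-shRNA1 or Bmpr1a-shRNA2 alone, and 1 when fitted with its own control only. The single knockdown (0 genes) called 240 by DESeq2, 52 with no filter, 2 and 5 with the 2 stricter filters, 34 by voom, 3 with separate hairpins, 8 and 5 with 1 hairpin, and 3 with its own control only. The shared effect (164) called 646 by DESeq2, 513 with no filter, 256 with at least 10 counts, 572 by voom, 279 with separate hairpins and 280 with Bmpr1a-shRNA1. Called in both (0) were 65, 22, 1 and 3 by DESeq2 and with the 3 filters, 16 by voom, 1 with separate hairpins and 5 with Bmpr1a-shRNA1. The control difference (0) called 81 by DESeq2 and 68 with no filter, and the hairpin difference (33) 332 by DESeq2.

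A replicate block used the replicate number, which the labels do not give as a pairing. Correlations of same-numbered libraries ran from -0.189 to 0.216, with 4 of 20 over 0.1, and 5 of 10 libraries correlated best with their own number. With this block the double knockdown called 1 gene and the shared effect 5. Under the block the shared effect on Kdr was -1.71 (adjusted p = 0.0732), and list medians were 0.30 and -0.51 for BMP targets in the added and the double effect and -0.58 for MHC class II in the single effect.

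The Kdr effect in the double knockdown (-1.86) passed the threshold by DESeq2 (-1.86, adjusted p = 0.000207), with no filter (-1.86, 0.00526), with at least 10 counts (-1.86, 0.0485), by voom (-1.94, 0.0264), with separate hairpins (-1.90, 0.0369) and with Bmpr1a-shRNA1 (-2.27, 0.038), and in the single knockdown by voom (-1.35, 0.0483). Kdr and Bmpr1a have no value under the filter of 5 CPM. List medians moved with 1 hairpin: with Bmpr1a-shRNA1 to -0.17 (OCR-lower, double), 0.0016 and 0.086 (aging signature down, added and double), 0.24 (MHC class II, double) and 0.17 (BMP targets, added), and with Bmpr1a-shRNA2 to 0.36 (aging signature down, double), 0.068 (HSC identity, double), -0.36 (BMP targets, double) and 0.0425 (BMP receptors, double). BMP targets were at -0.68, 0.14 and 0.17 in the added effect with the 3 filters, and in the double at -0.50 with no filter, -0.93 by voom and -0.60 with separate hairpins. BMP receptors were at 0.19 in the added effect with 5 CPM. The causes of these changes were not tested.

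Leaving out 1 library at a time, calls ranged from 0 to 49 (double), 0 to 7 (single), 5 to 287 (shared), 0 to 94 (hairpin) and 0 to 2 (both). The double called 0 without either Double_Scramble library, 49 without replicate 1 of Bmpr1a-shRNA2 and 40 without replicate 2 of the single knockdown. Kdr ranged from -2.04 to -1.62 (double), -1.55 to -1.27 (single) and -1.71 to -1.49 (shared). Bmpr1a in the single knockdown ranged from -0.66 to 0.27 and turned to 0.0297 without replicate 1 of the single knockdown and 0.2683 without replicate 1 of GFP_Scramble. List medians ranged from -0.14 to -0.071 and -0.13 to -0.0211 (OCR-lower, double and single), 0.0727 to 0.20 and 0.16 to 0.29 (aging signature down, added and double), -0.11 to 0.11, -0.16 to -0.0709 and -0.29 to 0.0297 (BMP receptors, added, double and single), -1.08 to 0.13 and -0.47 to 0.0458 (BMP targets, added and double), -0.11 to 0.0267 (HSC identity, double), and 0.0033 to 0.15 and -0.79 to -0.66 (MHC class II, double and single). Of all values recomputed under other settings, 947 kept their direction and side of the threshold, or moved by less than the spread. Another 58 moved, 20 lost and 11 gained an adjusted p below 0.05, and 0 gene effects turned sign. With a library left out 1117 were kept and 40 moved. There 80 lost and 1 gained an adjusted p below 0.05, and 2 gene effects turned sign. A gene effect that passed in neither fit counted as kept if its sign held.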
